A study of Homo sapiens with 18 samples.

Results

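The genes described here are 9 markers of the epithelial-mesenchymal transition (EMT), chosen by symbol. They are the epithelial adhesion genes CDH1 and EPCAM, the mesenchymal genes CDH2, VIM and FN1, and the transcription factor genes ZEB1, ZEB2, SNAI2 and TWIST1. They are 9 of the 16715 genes listed over both cell lines. All 9 were among the 15358 genes listed for MCF10A and 7 were among the 15257 listed for hTERT RPE-1. CDH1 and EPCAM were not analysed here for hTERT RPE-1. RNAseq of polyadenylated RNA covered 18 libraries, 9 for each of the 2 lines. MCF10A is a near-normal human breast epithelial line, and hTERT RPE-1 is a human retinal pigment epithelial line immortalised with telomerase. Cells of each line were transfected for 72 h with 30 nM of a non-targeting siRNA (siNT, the negative control), of the hsa-miR-28-5p mimic or of the hsa-miR-708-5p mimic. Each group had 3 biological replicates, which the labels number 7, 8 and 9 for MCF10A and 1, 2 and 3 for hTERT RPE-1. The groups of a line thus shared the transfection, the dose and the time, and an untransfected group was not analysed here.

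In EMT, epithelial cells that are joined by E-cadherin loosen their junctions, take on N-cadherin, vimentin and fibronectin, and become motile. Transcription factors of the ZEB, SNAIL and TWIST families drive the change, largely by repressing CDH1 and other junction genes, and the ZEB genes and the miR-200 family repress each other. TGF-beta is the best known inducer. MCF10A is much used as a model of EMT, and retinal pigment epithelium that loses contact in culture takes on mesenchymal traits.

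The study treats both mimics as members of the MIR-28 family, which share their seed. The mature sequence of hsa-miR-708-5p (RefSeq, GRCh38.p14, chr11:79402077-79402099, minus strand) is shown with the seed, bases 2 to 8, in capitals, because the seed sets which 3′ UTR matches were searched for.
hsa-miR-708-5p: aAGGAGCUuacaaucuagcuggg
The search covered the annotated 3′ UTR of 1 transcript per gene (GENCODE 44, hg38), on the transcript strand only, for AGCTCCT, for GCTCCTA, and for the 6 bases GCTCCT that both contain. Of the 9 genes, ZEB1 alone had a match. Its 3′ UTR of 2543 nt, in exon 9, held a match of 6 bases at chr10:31529403-31529408 and a match of 7 bases at chr10:31529492-31529498 on the plus strand. They are printed with their flanks, the match in capitals, since no other marker transcript carries these letters there.
ZEB1, 6-base match: cttcacaggttGCTCCTtcttcctgaaatc
ZEB1, 7-base match: ttctgactctcAGCTCCTgcacttctgtca
A match of 7 bases was present in 18.8% of the MCF10A genes tested that had an annotated 3′ UTR, and a match of 6 bases in 35.7%. A match is a run of letters and not evidence of binding.

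The unit of the measurements is a normalised value, that is an estimated count that was scaled by the size factor of its library. The depth was 19.4 to 31.7 M reads on genes in MCF10A and 23.8 to 40.3 M in hTERT RPE-1. A count of 3 reads corresponded to values between 2.36 and 4.41, so all 9 markers lay far above the counting floor, which covers counting error only. Breast basal markers were present in MCF10A, where 17 of 17 were tested. In hTERT RPE-1, 9 of 15 retinal pigment epithelial markers were listed and 7 tested, and RPE65 was not among the genes analysed there. With siNT the highest were MITF (1908 ± 139, SD, n = 3) and OTX2 (951 ± 62.4), while RLBP1 (mean 2) and LRAT (3) lay at the counting floor. Each line also held markers of the other. In MCF10A 6 of these 15 were tested, among them LRAT (1212) and BEST1 (795). In hTERT RPE-1 8 of the 17 breast markers were tested, among them PERP (3568) and DSC3 (2608). Of 12 markers of blood, endothelial, liver, nerve and muscle cells, 3 were listed for MCF10A and 4 for hTERT RPE-1. The hTERT RPE-1 library of hsa-miR-28-5p replicate 1 stood apart in its share of ribosomal RNA genes, 15.1% of the summed value against 4.23% to 7.20% in the other 8.

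MCF10A replicate 7 stood apart in these markers in all 3 groups, which was noticed after the values were seen. CDH1 and EPCAM were higher in replicate 7 than in replicates 8 and 9 of the same group, and CDH2, VIM, FN1, ZEB1, ZEB2 and SNAI2 were lower. TWIST1 was lower in replicate 7 with siNT and hsa-miR-28-5p and lay between the other replicates with hsa-miR-708-5p. Averaged over the 3 groups, replicate 7 differed from the mean of replicates 8 and 9 by 0.82 in CDH1, 0.96 in EPCAM, -1.37 in CDH2 and -1.34 in FN1 on the log2 scale. The median of the absolute difference over the 14726 genes tested was 0.15, and 0.951% of them had a larger difference than CDH2. The differences were -0.89 in ZEB1, -0.85 in ZEB2 and -0.54 in VIM, and smaller in TWIST1 (-0.30) and SNAI2 (-0.19). The ratio of CDH1 to CDH2, each per kilobase of transcript, was 66.8 in siNT replicate 7, against 16.7 and 20.2 in replicates 8 and 9. With hsa-miR-28-5p it was 56.3, 12.1 and 10.1, and with hsa-miR-708-5p it was 56.4, 12.9 and 9.23. The ratio thus varied more with the replicate number than with the mimic, with every replicate 7 library above every other library.

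**Figure D1:**
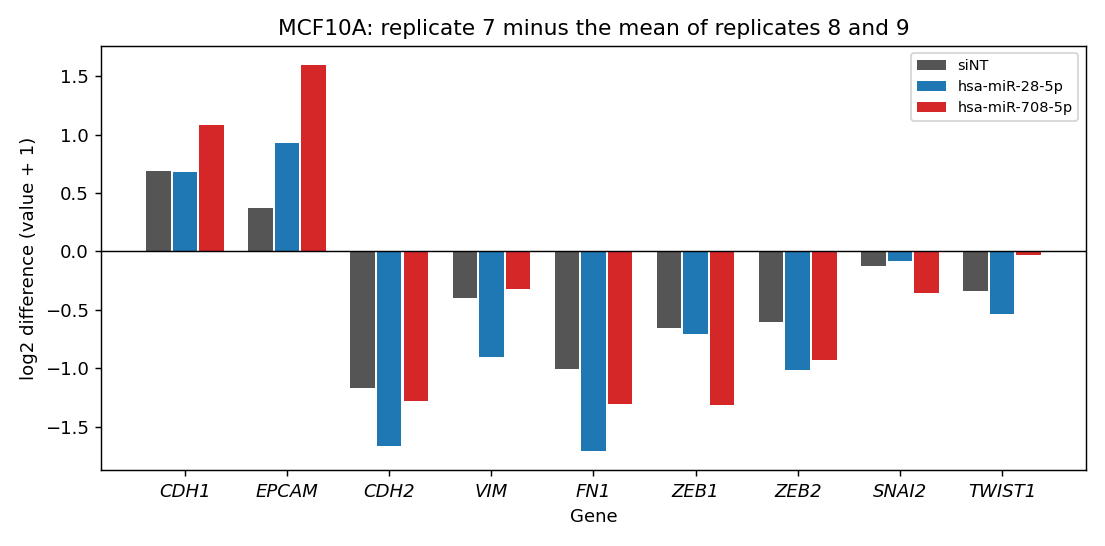
Difference in log2(value + 1) between MCF10A replicate 7 and the mean of replicates 8 and 9 of the same group (vertical axis) for the 9 EMT markers (horizontal axis), with 1 bar per group. CDH1 and EPCAM lie above 0 in all 3 groups and CDH2, VIM, FN1, ZEB1 and ZEB2 below it.

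The same split ran through the longer epithelial and mesenchymal lists but not through every list of EMT genes, given as a description with no test. Of 32 tested epithelial junction and identity genes, which hold none of the 9 markers, 24 were higher in replicate 7 than in both other replicates in all 3 groups and 0 were lower, whereas 10.5% of all tested genes were higher in this way. They included CLDN4, a claudin of tight junctions (mean difference 1.33), ELF3, an epithelial transcription factor (1.18), and OCLN, which encodes occludin (0.89). Of 38 tested mesenchymal effector and matrix genes, 16 were lower in replicate 7 in all 3 groups and 1 was higher, against 9.57% of all genes lower. POSTN, a matrix protein (-2.06), DCN, a proteoglycan (-1.32), and SERPINE2, a protease inhibitor (-1.23), were lower, and TNC (0.49) was higher. Of the 32 tested genes of the TGF-beta pathway, 5 were higher and 4 lower. Of 13 other EMT transcription factor genes, 3 were higher and 2 lower, with a median difference of 0.22. Of 9 cadherin-catenin complex genes, 4 were higher and 1 lower. The 7 genes named with their differences were picked after the values were seen. What set replicate 7 apart was not tested. In bulk RNA, fewer cells of a type and less RNA per cell cannot be told apart. The replicate number pairs the siNT and mimic libraries of MCF10A, so values with the replicate number as a block are given below. Values without replicate 7 are given as well, both where they change a call or a count in this line. Leaving out replicate 7 was chosen after its values in these markers were seen, and it leaves 2 libraries a group. It removes spread from the same markers that singled it out, so its p-values are descriptive and are not support for a change. The share of all genes called without replicate 7 is not given, so counts from that fit are no result about a list.

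Levels of the markers within a line were compared per kilobase of transcript. In MCF10A with siNT the order was VIM (6763 ± 1035, SD, n = 3), FN1 (2262 ± 825), CDH1 (1837 ± 569), EPCAM (1483 ± 230), SNAI2 (939 ± 71.6), TWIST1 (317 ± 46.7), CDH2 (67.4 ± 26.8), ZEB1 (52.2 ± 13.9) and ZEB2 (37.6 ± 8.82). The libraries of FN1, CDH1 and EPCAM overlapped as neighbours in this order, as did those of CDH2, ZEB1 and ZEB2. MCF10A thus held an epithelial cadherin beside abundant vimentin and fibronectin transcripts. In hTERT RPE-1 with siNT the order was FN1, VIM (65544 ± 6658), CDH2 (5735 ± 423), ZEB1 (448 ± 13.8), ZEB2 (224 ± 2.85), SNAI2 (188 ± 31.7) and TWIST1 (89.6 ± 4.64). Only ZEB2 and SNAI2 overlapped as neighbours. FN1 alone took 3.06% to 4.66% of the summed value of the siNT libraries of hTERT RPE-1, the highest place of any gene in each of them. The tables of the lines were scaled separately, so no level is compared between them.

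The first question was whether the epithelial adhesion genes changed in MCF10A. CDH1 encodes E-cadherin, which holds epithelial cells together at adherens junctions. Its values with siNT were 11785, 6373 and 8357 in replicates 7, 8 and 9. With hsa-miR-28-5p they were 10770, 6892 and 6529, and with hsa-miR-708-5p they were 10303, 5249 and 4530. The 3 groups overlapped, with replicate 7 the highest library of each. Its log2 change from siNT was -0.12 ± 0.31 (SE, n = 3) with hsa-miR-28-5p (limma adjusted p = 0.799) and -0.45 ± 0.31 with hsa-miR-708-5p (limma adjusted p = 0.282). With the replicate block the standard error was 0.13, and CDH1 passed the test as lower with hsa-miR-708-5p (limma adjusted p = 0.0135). Without replicate 7 the change with hsa-miR-708-5p was -0.58 ± 0.12 (limma adjusted p = 0.00322). With hsa-miR-708-5p CDH1 passed in 1 of 9 fits that left out 1 library (-0.81 to -0.22, limma adjusted p up to 0.667). That fit left out hsa-miR-708-5p replicate 7 (-0.81, limma adjusted p = 0.0307) and kept siNT replicate 7, the highest siNT library.

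EPCAM encodes an epithelial cell adhesion molecule. The siNT libraries held 2702, 2043 and 2136 in replicates 7, 8 and 9. The values were 2368, 1268 and 1220 with hsa-miR-28-5p and 2898, 1094 and 841 in the hsa-miR-708-5p libraries. In replicates 8 and 9 both mimics lay below both siNT libraries, and in replicate 7 hsa-miR-708-5p lay above siNT. The log2 fold changes of -0.56 ± 0.38 and -0.71 ± 0.38 did not pass the test (limma adjusted p = 0.313 and 0.176). With the block, EPCAM passed as lower with hsa-miR-28-5p (limma adjusted p = 0.0399) and with hsa-miR-708-5p (0.00956). Without replicate 7 the fold changes were -0.75 ± 0.12 (limma adjusted p = 0.00125) and -1.12 ± 0.12 (4.33e-05). Of 9 fits that left out 1 library EPCAM passed in 0 with hsa-miR-28-5p and in 1 with hsa-miR-708-5p (limma adjusted p up to 0.561 and 0.535). That fit left out hsa-miR-708-5p replicate 7 and kept siNT replicate 7 (-1.25, limma adjusted p = 0.00426).

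**Figure D2:**
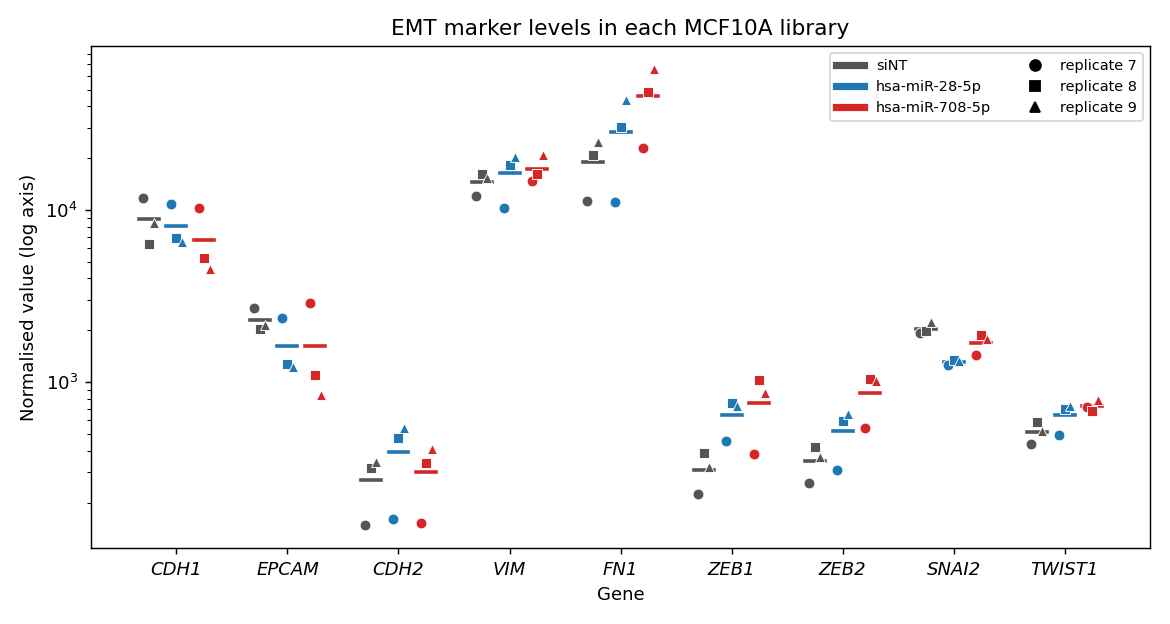
Normalised value of each EMT marker (vertical log axis) in each of the 9 MCF10A libraries, by gene (horizontal axis) and group, with the marker shape giving the replicate and the bar the mean of 3 libraries. ZEB1, ZEB2 and FN1 span a wide range within each group, whereas SNAI2 with hsa-miR-28-5p stays between 1264 and 1350, below the siNT libraries.

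Among the mesenchymal genes, CDH2 encodes N-cadherin, the cadherin of mesenchymal and neural cells. Its MCF10A values in replicates 7, 8 and 9 were 147, 319.3 and 345 with siNT, 160, 475 and 542 with hsa-miR-28-5p, and 152, 339 and 410 in the hsa-miR-708-5p libraries. Replicate 7 was the lowest library of each group, and the groups overlapped. The log2 fold changes were 0.45 ± 0.49 with hsa-miR-28-5p (limma adjusted p = 0.541) and 0.13 ± 0.49 with hsa-miR-708-5p (0.868). With the block CDH2 passed as higher with hsa-miR-28-5p (limma adjusted p = 0.0409), and without replicate 7 that change was 0.61 ± 0.15 (limma adjusted p = 0.0104). VIM, the intermediate filament gene of mesenchymal cells, held 12037, 16246 and 15420 with siNT, 10282, 18297 and 20278 in the hsa-miR-28-5p libraries and 14727, 16217 and 20940 in the hsa-miR-708-5p libraries. These groups overlapped, and VIM passed the test with neither mimic in any MCF10A fit.

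FN1 encodes fibronectin, a matrix protein that mesenchymal cells lay down. With siNT it stood at 11325, 20807 and 24806 in MCF10A replicates 7, 8 and 9. It stood at 11127, 30200 and 43721 with hsa-miR-28-5p, and at 22944, 48443 and 66079 in the hsa-miR-708-5p libraries. Each hsa-miR-708-5p library lay above the siNT library of its number, and the groups overlapped through replicate 7. Its log2 change from siNT was 0.44 ± 0.49 with hsa-miR-28-5p (limma adjusted p = 0.545) and 1.22 ± 0.49 with hsa-miR-708-5p (0.0787). With the block FN1 passed as higher with both mimics (limma adjusted p = 0.0387 and 4.38e-05). Without replicate 7 the changes were 0.68 ± 0.18 and 1.32 ± 0.18 (limma adjusted p = 0.0165 and 0.000199). FN1 with hsa-miR-708-5p passed in 2 of 9 fits that left out 1 library (0.88 to 1.65, limma adjusted p up to 0.257). They were the fits without hsa-miR-28-5p replicate 7 and without hsa-miR-708-5p replicate 7 (limma adjusted p = 0.0263 and 0.0246).

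The MCF10A calls of the fit without the block were all in the transcription factor genes. ZEB1 encodes a zinc finger repressor of CDH1. It stood at 222.8, 387 and 320 with siNT in replicates 7, 8 and 9, at 454, 758 and 727 with hsa-miR-28-5p, and at 380, 1035 and 868 in the hsa-miR-708-5p libraries. All hsa-miR-28-5p libraries lay above all siNT libraries, while hsa-miR-708-5p replicate 7 lay just below siNT replicate 8. ZEB1 rose 2.08-fold with hsa-miR-28-5p (1.06 ± 0.34 on the log2 scale, limma adjusted p = 0.0453) and 2.31-fold with hsa-miR-708-5p (1.21 ± 0.34, limma adjusted p = 0.0193). The first call is close to the threshold. It passed in 3 of 9 fits that left out 1 MCF10A library, with fold changes from 0.84 to 1.30 and limma adjusted p up to 0.146, and was lost without any siNT library, without hsa-miR-28-5p replicate 8 or 9, or without hsa-miR-708-5p replicate 9. The call with hsa-miR-708-5p passed in 6 of 9 (0.93 to 1.65, limma adjusted p up to 0.0843) and was lost without siNT replicate 7 or hsa-miR-708-5p replicate 8 or 9. With the block both passed (limma adjusted p = 0.000275 and 4.89e-05), as they did without replicate 7 (1.08 ± 0.14 and 1.43 ± 0.14, limma adjusted p = 0.000265 and 1.8e-05). Neither passed in a fit with no trend in the spread (limma adjusted p = 0.0991 and 0.0529). A fit with a robust spread lost the call with hsa-miR-28-5p (limma adjusted p = 0.0927). ZEB1 is the marker whose 3′ UTR holds the printed matches to the seed. The strand used in counting is not given in the sources used here, so reads of ZEB1 and its antisense gene ZEB1-AS1, and of VIM and VIM-AS1, cannot be told apart.

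ZEB2, the paralogue of ZEB1, stood at 259, 418 and 370 with siNT, at 310, 598 and 657 with hsa-miR-28-5p, and at 541, 1039 and 1019 in the hsa-miR-708-5p libraries. All hsa-miR-708-5p libraries lay above all siNT libraries, and the hsa-miR-28-5p group overlapped with siNT through replicate 7. ZEB2 rose 2.43-fold with hsa-miR-708-5p (1.28 ± 0.31, limma adjusted p = 0.00963), a call kept in 9 of 9 fits that left out 1 library. With hsa-miR-28-5p the change was 0.53 ± 0.31 (limma adjusted p = 0.239). It passed in 1 of 9 fits that left out 1 library (limma adjusted p up to 0.532), the fit without hsa-miR-28-5p replicate 7 (limma adjusted p = 0.0471). With the block it passed (limma adjusted p = 0.00806), as it did without replicate 7 (0.67 ± 0.12, limma adjusted p = 0.00203).

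SNAI2 encodes SLUG, a SNAIL family repressor that basal breast cells also express. The siNT libraries held 1930, 1989 and 2225, those of hsa-miR-28-5p held 1264, 1350 and 1326, and those of hsa-miR-708-5p held 1433, 1882 and 1777. Both mimic groups lay wholly below siNT, and hsa-miR-28-5p wholly below hsa-miR-708-5p. SNAI2 fell to 0.642 times the siNT level with hsa-miR-28-5p (-0.64 ± 0.11, limma adjusted p = 0.00317), in 9 of 9 fits that left out 1 library. The change of -0.28 ± 0.11 with hsa-miR-708-5p did not pass (limma adjusted p = 0.0781). It passed with the block (limma adjusted p = 0.0401) and did not pass without replicate 7 (-0.20 ± 0.10, limma adjusted p = 0.111).

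TWIST1, a basic helix-loop-helix factor, stood at 438, 590 and 519 with siNT, at 493, 701 and 727 with hsa-miR-28-5p, and at 717, 682 and 785 in the hsa-miR-708-5p libraries. The hsa-miR-708-5p libraries lay above all siNT libraries. TWIST1 rose 1.42-fold with hsa-miR-708-5p (0.50 ± 0.16, limma adjusted p = 0.0339). The call was kept in 4 of 9 fits that left out 1 library (0.39 to 0.61, limma adjusted p up to 0.123). It was lost without siNT replicate 7 or 9 and without any of the hsa-miR-708-5p replicates. It was kept with the block (limma adjusted p = 0.00892) and without replicate 7 (0.40 ± 0.12, limma adjusted p = 0.0226). It was lost with no trend in the spread (limma adjusted p = 0.0626). With hsa-miR-28-5p the change was 0.30 ± 0.16 (limma adjusted p = 0.203). It did not pass with the block (limma adjusted p = 0.102). It passed in 1 of 9 fits that left out 1 library (limma adjusted p up to 0.488), the fit without hsa-miR-28-5p replicate 7 (0.48, limma adjusted p = 0.0356). It passed also without replicate 7 of all groups (0.37 ± 0.12, limma adjusted p = 0.0465).

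By count, 2 of the 9 markers passed the test with hsa-miR-28-5p in MCF10A, ZEB1 higher and SNAI2 lower, where 22.7% of all 14726 genes tested passed (10.7% higher and 12.0% lower). With hsa-miR-708-5p 3 of 9 passed, ZEB1, ZEB2 and TWIST1, all higher, where 32.8% of all genes passed (15.5% higher). Both shares are near those of all genes. The median log2 fold change of the 9 was 0.30 and 0.24, against 0.01 and -0.00 over all genes. With the replicate number as a block 6 of 9 passed with hsa-miR-28-5p (29.9% of all genes) and 7 of 9 with hsa-miR-708-5p (39.5%). In the blocked fit CDH1 and EPCAM were lower with hsa-miR-708-5p while FN1, ZEB1, ZEB2 and TWIST1 were higher, and SNAI2 was lower. With hsa-miR-28-5p EPCAM and SNAI2 were lower and CDH2, FN1, ZEB1 and ZEB2 higher. Without replicate 7, with 2 libraries a group, the counts were 7 and 6. The share of all genes that passed there is not given, so these 2 counts are no result about the markers. Groups did not overlap for 2 markers with hsa-miR-28-5p (41.8% of all genes) and for 3 with hsa-miR-708-5p (46.6%), and an exact permutation test of 3 against 3 libraries cannot go below p = 0.1. Both comparisons share the siNT libraries, so they are not independent of each other.

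**Figure D3:**
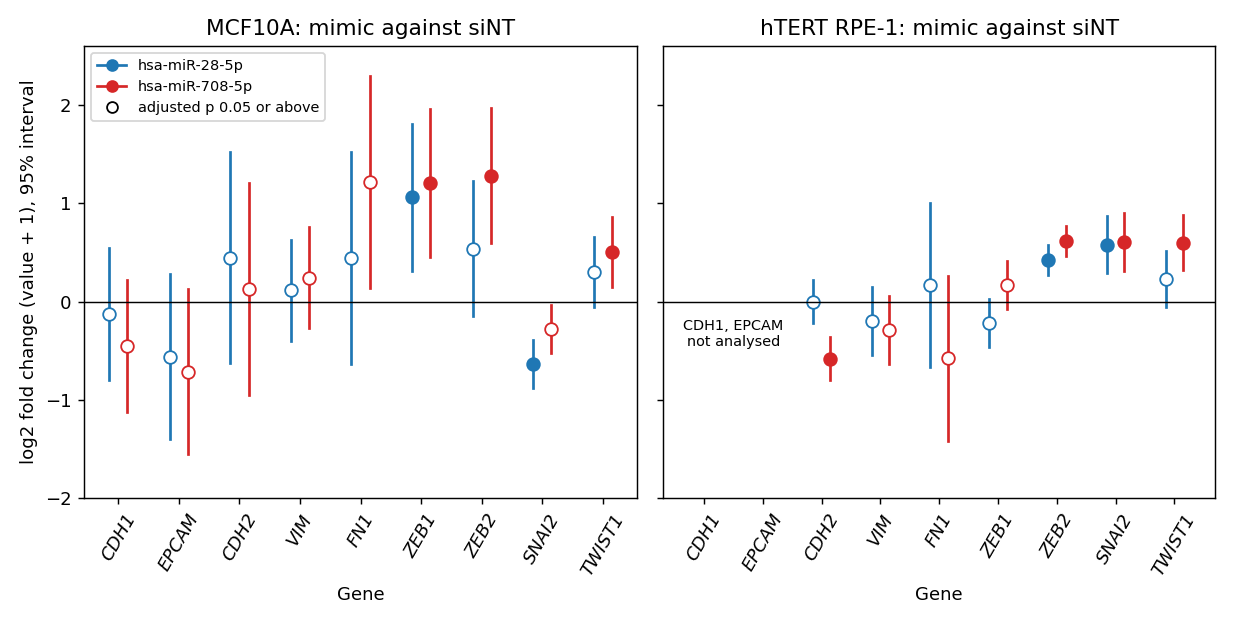
Log2 fold change of each EMT marker (horizontal axis) against siNT with its 95% interval (vertical axis, on the scale of value + 1), in MCF10A on the left and hTERT RPE-1 on the right, from 3 against 3 libraries, with filled points for limma adjusted p below 0.05. In MCF10A SNAI2 lies below 0 and ZEB1 above 1 with both mimics, and in hTERT RPE-1 SNAI2 lies near 0.6 with both.

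The mimics themselves were then compared at the same dose and time. In MCF10A 0 of the 9 markers passed the limma test of hsa-miR-708-5p against hsa-miR-28-5p, where 1.55% of all genes passed. The groups of 1 marker, SNAI2, did not overlap (20.0% of all genes). The difference was largest in FN1 (0.77, 95% interval -0.31 to 1.86), ZEB2 (0.74, 0.06 to 1.43) and SNAI2 (0.36, 0.11 to 0.61). Of these, ZEB2 and SNAI2 had an unadjusted interval above 0. The block called FN1 and ZEB2 higher with hsa-miR-708-5p (limma adjusted p = 0.00924 and 0.00482, 4.37% of all genes), and without replicate 7 ZEB2 and SNAI2 passed (limma adjusted p = 0.00618 and 0.0218). SNAI2 passed in 1 of 9 fits that left out 1 library (limma adjusted p up to 0.435), the fit without hsa-miR-708-5p replicate 7 (0.48, limma adjusted p = 0.0296). For CDH1 the difference was -0.33, with an interval from -0.999 to 0.34, which does not show the mimics to act alike.

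In hTERT RPE-1 none of the 3 mesenchymal genes passed as higher with either mimic. CDH2 stood at 21913, 24988 and 22191 with siNT in replicates 1, 2 and 3, at 21261, 23544 and 24108 with hsa-miR-28-5p, and at 15901, 14504 and 15703 in the hsa-miR-708-5p libraries. The hsa-miR-708-5p libraries lay below all others and the other 2 groups overlapped. CDH2 fell to 0.668 times the siNT level with hsa-miR-708-5p (-0.58 ± 0.10, limma adjusted p = 0.00047). With hsa-miR-28-5p the change was -0.00 ± 0.10 (limma adjusted p = 0.982, 95% interval -0.22 to 0.22). CDH2 was also lower with hsa-miR-708-5p than with hsa-miR-28-5p (-0.58 ± 0.10, limma adjusted p = 0.00343). Both calls were kept in 9 of 9 fits that left out 1 library.

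VIM in hTERT RPE-1 held 151148, 147652 and 124747 with siNT, 120999, 127866 and 118008 in the hsa-miR-28-5p libraries and 121011, 105267 and 119413 in the hsa-miR-708-5p libraries. All hsa-miR-708-5p libraries lay below all siNT libraries. The log2 fold changes of -0.20 ± 0.16 and -0.29 ± 0.16 did not pass (limma adjusted p = 0.311 and 0.129), while a fit with no trend in the spread called VIM lower with hsa-miR-708-5p (limma adjusted p = 0.0395). FN1 held 1225860, 1729290 and 1068990 with siNT, 1285410, 1673180 and 1493480 in the hsa-miR-28-5p libraries and 787993, 945043 and 913106 in the hsa-miR-708-5p libraries. The hsa-miR-708-5p libraries were the lowest 3 of the 9, while the siNT libraries spread over a wide range. The changes of 0.17 ± 0.38 and -0.58 ± 0.38 did not pass (limma adjusted p = 0.741 and 0.205), with an interval of -1.41 to 0.26 for hsa-miR-708-5p. FN1 passed as lower with hsa-miR-708-5p in the fits with no trend and with a robust spread, both against siNT (limma adjusted p = 0.0258 and 0.0252) and against hsa-miR-28-5p (-0.75, limma adjusted p = 0.0302 and 0.0224).

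**Figure D4:**
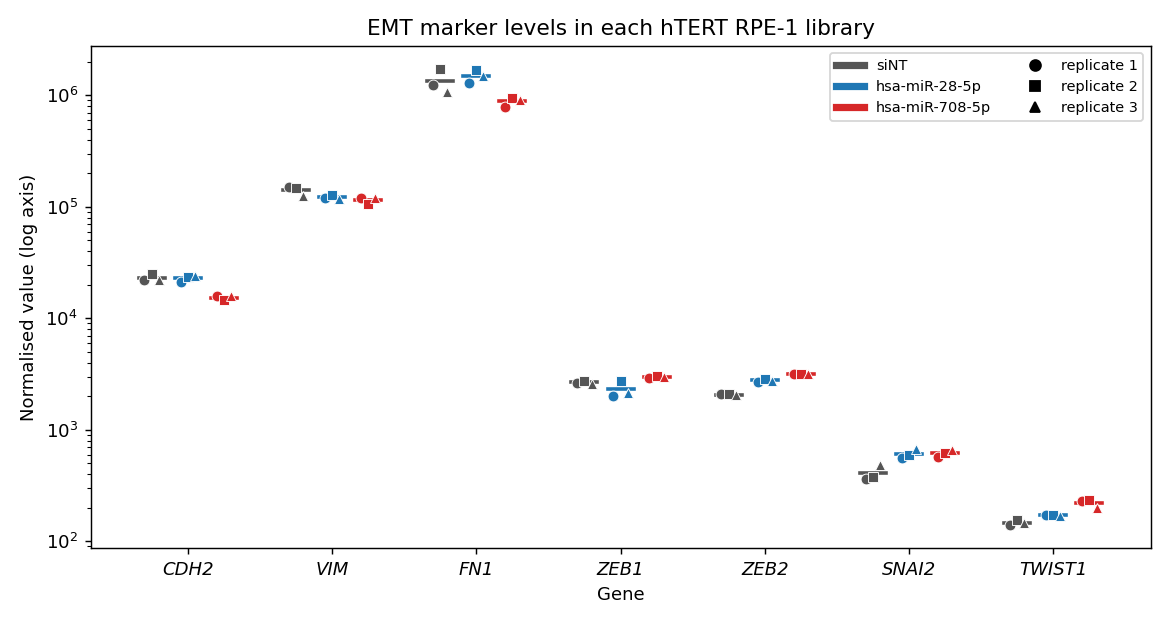
Normalised value of each of the 7 EMT markers analysed in hTERT RPE-1 (vertical log axis) in each of the 9 libraries, by gene (horizontal axis) and group, with the marker shape giving the replicate and the bar the mean of 3 libraries. ZEB2, SNAI2 and TWIST1 are higher in every hsa-miR-708-5p library than in every siNT library and CDH2 is lower.

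Of the transcription factor genes of hTERT RPE-1, ZEB2 and SNAI2 rose with both mimics and TWIST1 with hsa-miR-708-5p. ZEB2 stood at 2096, 2079 and 2044 with siNT, at 2683, 2878 and 2767 with hsa-miR-28-5p, and at 3152, 3194 and 3166 in the hsa-miR-708-5p libraries. The 3 groups did not overlap. ZEB2 rose 1.34-fold with hsa-miR-28-5p (0.42 ± 0.07, limma adjusted p = 0.000676) and 1.53-fold with hsa-miR-708-5p (0.61 ± 0.07, limma adjusted p = 2.63e-05). The difference between the mimics was 0.19 ± 0.07 (limma adjusted p = 0.0699).

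SNAI2 stood at 363, 375 and 489 with siNT, at 555, 593 and 677 with hsa-miR-28-5p, and at 576, 618 and 659 in the hsa-miR-708-5p libraries. Both mimic groups lay above siNT and overlapped with each other. SNAI2 rose 1.49-fold (0.58 ± 0.13, limma adjusted p = 0.00487) and 1.52-fold (0.60 ± 0.13, limma adjusted p = 0.00243). The difference between the mimics was 0.02, with an interval of -0.27 to 0.32. TWIST1 stood at 139, 154 and 145 with siNT, at 173, 173 and 168 with hsa-miR-28-5p, and at 232, 234.9 and 199.1 in the hsa-miR-708-5p libraries, and the 3 groups did not overlap. TWIST1 rose 1.51-fold with hsa-miR-708-5p (0.60 ± 0.13, limma adjusted p = 0.00201), and the change of 0.23 ± 0.13 with hsa-miR-28-5p did not pass (limma adjusted p = 0.161). The calls of ZEB2 and SNAI2 with both mimics and of TWIST1 with hsa-miR-708-5p were kept in 9 of 9 fits that left out 1 library.

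ZEB1 in hTERT RPE-1 held 2628, 2753 and 2598 with siNT, 2000, 2768 and 2150 in the hsa-miR-28-5p libraries and 2908, 3062 and 2998 in the hsa-miR-708-5p libraries. Within hsa-miR-28-5p replicate 2 lay above siNT and replicates 1 and 3 below it. The log2 fold changes of -0.22 ± 0.11 and 0.17 ± 0.11 did not pass (limma adjusted p = 0.128 and 0.209), although hsa-miR-708-5p lay above all siNT libraries. ZEB1 passed as lower with hsa-miR-28-5p in 1 of 9 fits that left out 1 library (limma adjusted p up to 0.376), the fit without hsa-miR-28-5p replicate 2 (-0.36, limma adjusted p = 0.0053). ZEB1 was higher with hsa-miR-708-5p than with hsa-miR-28-5p (0.39 ± 0.11, limma adjusted p = 0.0317). This call was kept in 3 of 9 fits that left out 1 library (0.29 to 0.53) and lost without hsa-miR-28-5p replicate 1 or 3 and without any of the hsa-miR-708-5p replicates (limma adjusted p up to 0.11). It was also lost with no trend in the spread and in the fit of the 6 libraries compared (limma adjusted p = 0.0628 and 0.0664).

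By count, 2 of 7 markers passed with hsa-miR-28-5p in hTERT RPE-1, both higher, where 46.8% of all 14527 genes passed (23.3% higher). With hsa-miR-708-5p 4 of 7 passed, 3 higher and 1 lower, where 62.1% of all genes passed (30.9% higher and 31.2% lower). All 7 had groups that did not overlap with hsa-miR-708-5p, where 69.2% of all genes did so. With hsa-miR-28-5p 3 of 7 did so (54.4%). Between the mimics 2 of 7 passed, where 21.2% of all genes passed (9.88% higher and 11.4% lower), and 5 did not overlap (38.7%). Scaling each library to its total in place of the deposited scaling moved the median of all genes to 0.32 with hsa-miR-708-5p, and on that scale ZEB1 passed as higher with hsa-miR-708-5p (0.49, limma adjusted p = 0.00552). The summed normalised value of a library was 34.8 to 37.1 M with siNT and 27.9 to 29.1 M with hsa-miR-708-5p. The changes of this line are thus relative to the deposited scaling.

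The response of a marker was then compared between the lines as a difference of log2 fold changes, hTERT RPE-1 minus MCF10A. For hsa-miR-28-5p 2 of 7 markers passed (23.4% of 13339 genes, 12.1% higher and 11.3% lower). SNAI2 fell by 0.64 in MCF10A and rose by 0.58 in hTERT RPE-1, a difference of 1.22 ± 0.17 (limma adjusted p = 6.54e-05). ZEB1 rose in MCF10A and did not pass in hTERT RPE-1, a difference of -1.28 ± 0.36 (limma adjusted p = 0.0205). For hsa-miR-708-5p 3 of 7 passed (39.8% of all genes, 20.2% higher and 19.6% lower). SNAI2 differed by 0.88 ± 0.17 (limma adjusted p = 0.000433), ZEB1 by -1.04 ± 0.36 (0.0335) and FN1 by -1.796 ± 0.62 (0.0259). The SNAI2 differences were kept in 18 of 18 fits that left out 1 library of either line. The ZEB1 and FN1 differences for hsa-miR-708-5p were each kept in 14 of 18, and ZEB1 for hsa-miR-28-5p in 15 of 18. For hsa-miR-708-5p ZEB1 was lost without MCF10A siNT replicate 7 or 9 and without MCF10A hsa-miR-708-5p replicate 8 or 9 (-0.76 to -1.08, limma adjusted p up to 0.134). FN1 was lost without MCF10A siNT replicate 7, MCF10A hsa-miR-708-5p replicate 8 or 9 or hTERT RPE-1 siNT replicate 2 (-1.46 to -1.69, limma adjusted p up to 0.0885). ZEB1 for hsa-miR-28-5p was lost without MCF10A siNT replicate 7 and without MCF10A hsa-miR-28-5p replicate 8 or 9 (-1.06 to -1.18, limma adjusted p up to 0.0747). With the block in both lines the counts were 2 for hsa-miR-28-5p (28.2% of all genes) and 6 for hsa-miR-708-5p. CDH2 (limma adjusted p = 0.00332), VIM (0.0376) and ZEB2 (0.00123) also passed for hsa-miR-708-5p, each with the lower response in hTERT RPE-1 (43.8% of all genes).

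The wider mesenchymal list showed how the markers sat among other effectors. In MCF10A 38 mesenchymal effector and matrix genes were tested, and 10 rose and 7 fell with hsa-miR-28-5p, while 13 rose and 7 fell under hsa-miR-708-5p (medians 0.18 and 0.27). Over all genes 22.7% and 32.8% passed in either direction, 10.7% and 15.5% as higher. The block called 16 higher and 7 lower, and 17 higher and 8 lower (29.9% and 39.5% of all genes in either direction). SPOCK1, a proteoglycan, rose by 2.03 and 2.69 on the log2 scale (limma adjusted p = 0.00143 and 0.000131). FBN1, which encodes fibrillin, rose by 1.27 and 2.11 (limma adjusted p = 0.0105 and 0.000376), and DCN, which encodes decorin, by 1.51 and 2.07 (limma adjusted p = 0.0391 and 0.00647). MMP2, a matrix protease, fell (-1.61 and -2.27, limma adjusted p = 0.00267 and 0.000173). Without replicate 7 the counts were 16 higher and 7 lower with hsa-miR-28-5p, while hsa-miR-708-5p gave 21 higher and 6 lower.

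In hTERT RPE-1 more of the list fell than rose. Of 46 tested genes 4 rose and 15 fell with hsa-miR-28-5p, while 3 rose and 26 fell under hsa-miR-708-5p, with medians of -0.40 and -0.93 against 0.01 and 0.00 over all genes. Of all genes 46.8% and 62.1% passed, 23.3% and 30.9% as higher. Smooth muscle actin (ACTA2) fell from 41704 ± 21422 (SD, n = 3) with siNT to 12691 ± 1918 in the hsa-miR-28-5p libraries and 2129 ± 172 in the hsa-miR-708-5p libraries (log2 fold changes -1.56 and -4.12, limma adjusted p = 0.004 and 3.87e-06). TAGLN, which encodes the actin-binding protein transgelin, fell (-0.82 and -3.31, limma adjusted p = 0.0155 and 1.38e-06). COL1A1, a collagen I chain, fell (-2.17 and -3.86, limma adjusted p = 0.00764 and 0.000125), as did ITGA5, a fibronectin receptor subunit (-1.78 and -1.56, limma adjusted p = 0.000126 and 0.000144). SPOCK1 and MMP14 rose with both mimics, SPOCK1 by 0.31 and 0.34 and MMP14 by 0.48 and 0.61. The responses of 36 genes could be compared between the lines, where 23.4% of all genes passed for hsa-miR-28-5p and 39.8% for hsa-miR-708-5p. The response in hTERT RPE-1 was lower for 13 and higher for 2 with hsa-miR-28-5p, CD44 and NT5E, and lower for 23 and higher for 4 with hsa-miR-708-5p, CDH13, COL6A3, MMP2 and CD44. Scaling to the library total gave 7 higher and 23 lower in hTERT RPE-1 with hsa-miR-708-5p. MMP14, CD44, NT5E, CDH13 and COL6A3 were named after the values were seen.

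**Figure D5:**
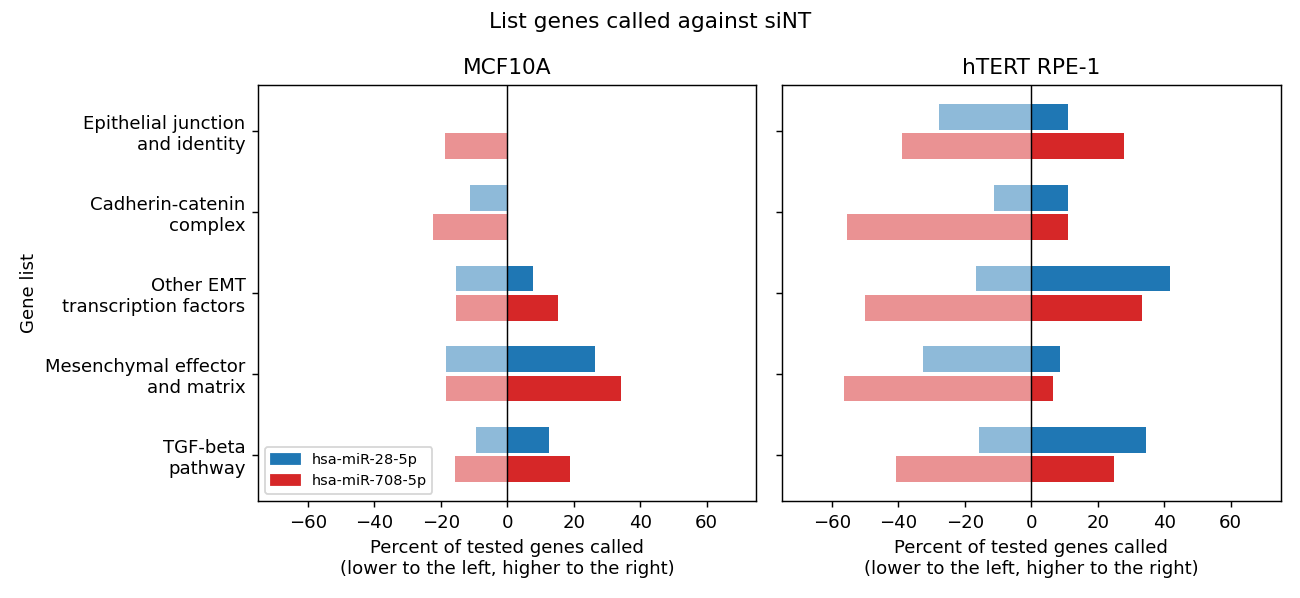
Percent of the tested genes of 5 lists (vertical axis) called lower (left of 0, pale bars) or higher (right of 0, full bars) against siNT at limma adjusted p below 0.05 (horizontal axis), for both mimics in both lines. The mesenchymal list lies mostly to the right in MCF10A and mostly to the left in hTERT RPE-1.

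How many genes of the epithelial junction and identity list were called in MCF10A depended on the fit. Of 32 tested genes 0 were called in the limma fit without the block with hsa-miR-28-5p (22.7% of all genes), and 6 fell and 0 rose with hsa-miR-708-5p (32.8%). At an unadjusted p under 0.05 in that fit 0 were higher and 2 lower with hsa-miR-28-5p, and 1 was higher and 8 were lower under hsa-miR-708-5p. With the block 1 rose and 7 fell with hsa-miR-28-5p, while 3 rose and 9 fell under hsa-miR-708-5p, where 29.9% and 39.5% of all genes were called. Without replicate 7 the counts were 2 higher and 5 lower, and 3 higher and 10 lower. The 6 that fell with hsa-miR-708-5p were ESRP1 (-1.20) and ESRP2 (-0.53), splicing factors of epithelial cells, AP1M2 (-1.02), CDS1 (-0.90), F11R (-0.46), a tight junction adhesion protein, and SPINT1 (-0.43), named after the values were seen. Of 18 genes tested in hTERT RPE-1 2 rose and 5 fell with hsa-miR-28-5p (46.8% of all genes passed), while 5 rose and 7 fell under hsa-miR-708-5p (62.1%). The keratin genes KRT8 (-1.60 and -2.83, limma adjusted p = 5.62e-07 and 1.2e-08) and KRT18 (-1.21 and -1.95) fell with both mimics. The tight junction scaffold gene TJP1 fell with both mimics as well (-0.45 and -0.65).

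Of 9 genes of the cadherin-catenin complex and its nectin partners, NECTIN1 changed with both mimics in both lines and in opposite directions. In MCF10A it fell from 4886 ± 624 with siNT to 2435 ± 171 and 1887 ± 363 (log2 fold changes -0.999 and -1.38, limma adjusted p = 0.000886 and 6.24e-05). In hTERT RPE-1 it rose from 150.3 ± 5.69 to 420.3 ± 79.7 and 385 ± 31.6 (1.46 and 1.35, limma adjusted p = 3.28e-05 and 2.36e-05). The difference between the lines passed for both mimics (2.46 ± 0.20 and 2.73 ± 0.20, limma adjusted p = 1.12e-07 and 3.7e-09). In MCF10A JUP, which encodes plakoglobin, was the only other gene of this list called in the fit without the block, with hsa-miR-708-5p (-0.52). In that fit 22.7% and 32.8% of all genes passed. The block called 0 higher and 2 lower with hsa-miR-28-5p (29.9% of all genes) and 1 higher and 2 lower under hsa-miR-708-5p (39.5%). Without replicate 7 the counts were 1 and 1, and 1 and 2. In hTERT RPE-1 1 of 9 rose and 1 fell with hsa-miR-28-5p (46.8% of all genes passed). Under hsa-miR-708-5p 1 rose and 5 fell there (62.1%). NECTIN3 fell in this line with both mimics (-0.52 and -0.74). With hsa-miR-708-5p JUP (-1.62), VCL (-1.04), CTNND1 (-0.56) and CTNNB1 (-0.38) fell as well, all named after the values were seen.

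Of 13 other EMT transcription factor genes tested in MCF10A, 1 rose and 2 fell with hsa-miR-28-5p, while 2 rose and 2 fell under hsa-miR-708-5p, shares near those of all genes (22.7% and 32.8%). The block called 2 higher and 4 lower with hsa-miR-28-5p. In hTERT RPE-1 5 rose and 2 fell of 12 with hsa-miR-28-5p (46.8% of all genes passed), while 4 rose and 6 fell under hsa-miR-708-5p (62.1%). TCF3, which encodes the E protein E2A, fell with both mimics in MCF10A (-0.43 and -0.72, limma adjusted p = 0.038 and 0.00212) and in hTERT RPE-1 (-0.78 and -1.10, limma adjusted p = 0.000656 and 3.12e-05). In hTERT RPE-1 SOX9 (0.86 and 0.90) and FOXC1 (0.58 and 0.87) rose with both mimics and TCF4 fell (-0.59 and -0.74). SNAI1, the SNAIL gene itself, fell in hTERT RPE-1 with hsa-miR-708-5p (-0.97), and PRRX2 passed as higher with both mimics in MCF10A (2.102 and 2.03). The siNT mean of PRRX2 was 4.39 ± 3.14, close to the counting floor, and the mimic means were 22.2 ± 15.9 and 18.1 ± 2.69, so its fold changes depend on the value of 1 that was added. Both were named after the values were seen.

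In MCF10A, of 32 genes of the TGF-beta pathway 4 rose and 3 fell with hsa-miR-28-5p, while 6 rose and 5 fell under hsa-miR-708-5p, also near the shares of all genes. The block called 7 higher and 4 lower with hsa-miR-28-5p (29.9% of all genes) and 9 higher and 5 lower under hsa-miR-708-5p (39.5%). Without replicate 7 the counts were 11 and 3 with hsa-miR-28-5p and 12 and 6 under hsa-miR-708-5p. The share of all genes is not given for that fit, so its counts are no result about the pathway. ID2 (0.80 and 1.97) and ID3 (0.76 and 1.34), inhibitors of basic helix-loop-helix factors, rose, and LTBP1 (-0.91 and -1.23), which holds latent TGF-beta in the matrix, fell with both mimics. In hTERT RPE-1 11 rose and 5 fell with hsa-miR-28-5p (46.8% of all genes passed), while 8 rose and 13 fell under hsa-miR-708-5p (62.1%), again near the shares of all genes. Library size scaling turned the balance with hsa-miR-708-5p to 12 higher and 5 lower. The co-receptor gene TGFBR3 rose by 2.05 and 2.71 and ID2 by 2.44 and 1.71. The ligand gene TGFB2 (-0.84 and -2.19) and BAMBI (-1.76 and -1.801), a decoy receptor, fell. The host transcript of miR-205, MIR205HG, held in MCF10A 4243 ± 928 with siNT, 3436 ± 550 under hsa-miR-28-5p and 2220 ± 88.5 under hsa-miR-708-5p, and passed as lower with hsa-miR-708-5p (-0.91, limma adjusted p = 0.00103). MIR200CHG, the host of miR-200c, was low (33.9 ± 5.74 with siNT) and did not pass with either mimic.

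Markers of cell identity moved beside these changes. In MCF10A 3 of 17 mammary epithelial markers fell and 0 rose with hsa-miR-28-5p in the limma fit, and 10 fell and 0 rose with hsa-miR-708-5p. Unadjusted p under 0.05 gave 7 and 14 lower and 0 higher, as did the block, and without replicate 7 the counts were 5 and 14 lower. Over all genes 22.7% and 32.8% passed in either direction, and 29.9% and 39.5% with the block. The basal keratin gene KRT14 (-1.71 and -2.29), TP63, the basal cell master regulator (-1.08 and -1.29), and KRT5 (-0.46 and -0.91) fell with both mimics, values being log2 fold changes. The summed value of the 17 was 357650 to 378640 with siNT, 266910 to 282250 in the hsa-miR-28-5p libraries and 216720 to 277750 in those of hsa-miR-708-5p. Of the 8 tested in hTERT RPE-1 5 rose and 0 fell with hsa-miR-28-5p (46.8% of all genes passed). Under hsa-miR-708-5p 4 rose and 3 fell in that line (62.1%). Of 7 retinal pigment epithelial markers tested in hTERT RPE-1, 2 rose and 3 fell with hsa-miR-28-5p (46.8% of all genes passed), while 1 rose and 2 fell under hsa-miR-708-5p (62.1%). Those that fell with both mimics were MITF (-0.80 and -0.56) and OTX2 (-0.56 and -0.52), and BEST1 rose with hsa-miR-28-5p (0.47), named after the values were seen. RLBP1, at 2.42 ± 1.42 with siNT and thus at the counting floor, passed as higher with both. The summed value of the listed retinal pigment epithelial markers was 2996 to 4429 with siNT, 1983 to 2122 in the hsa-miR-28-5p libraries and 2138 to 2329 in those of hsa-miR-708-5p. The part of these shifts in the values of the EMT markers was not tested. CD68, a lysosomal marker of macrophages, rose in hTERT RPE-1 by 2.06 and 4.04. In MCF10A it rose by 1.66 with hsa-miR-708-5p (limma adjusted p = 0.000123) from 205 ± 16.9 to 659 ± 133, and held 277 ± 51.7 with hsa-miR-28-5p (0.42, limma adjusted p = 0.127). The summed value of the 4 listed markers of other cell types was 333 to 468 with siNT, 532 to 3737 in the hsa-miR-28-5p libraries and 4807 to 7254 in those of hsa-miR-708-5p for hTERT RPE-1, nearly all of it CD68, while the group means of the pan-leukocyte marker PTPRC were 7, 7 and 6.

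The genes most like a marker were taken as those with the highest Pearson r of log2 values over the 9 libraries of a line, among genes with a mean of at least 100. The libraries share groups and replicate numbers, so r is a description and carries no test. In MCF10A FN1 was most like SRPX (0.991) and SRGN (0.991), ZEB2 most like PLPP3 (0.992), CDH2 most like CADM3 (0.987) and CDH1 most like PRSS12 (0.985). ZEB1 was most like C1RL (0.986), followed by C4B and its near-identical copy C4B_2 (0.984 each), whose reads may be shared. EPCAM was most like RUNX1 (0.979), TWIST1 most like TMEM250 (0.99), VIM most like CUTA (0.972) and SNAI2 most like PCGF1 (0.952). In hTERT RPE-1 CDH2 was most like MSL1 (0.993) and FBN1 (0.985), ZEB2 most like LHFPL2 (0.996), ZEB1 most like PMP22 (0.983) and TWIST1 most like B3GAT3 (0.98). SNAI2 was most like LCOR (0.977), FN1 most like ITGBL1 (0.953) and VIM most like ZNF598 (0.947).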

How the data were processed

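PolyA+ RNAseq of 18 libraries was analysed. Per the labels and the study's methods, the authors aligned reads to hg38 with HISAT2 2.1.0, quantified RefSeq genes by expectation maximisation in Partek and scaled them with DESeq2. The deposited values are thus a normalised signal, an estimated count divided by a library size factor, in 1 table per line. Columns holding the authors' own fold changes and p-values were not used. Since the values were not raw counts, each line was fitted with limma 3.58.1 in R 4.3.3, with a trend in the spread, on log2(value + 1) over all 9 libraries. Genes were kept where 3 or more libraries reached a value of 10. P-values were adjusted over all genes by Benjamini-Hochberg, with a threshold of 0.05, and fold changes are on the log2(value + 1) scale, which understates those of low genes. Responses of the lines were compared by the difference of their fold changes over 13339 genes, with Welch-Satterthwaite degrees of freedom. Depth was read from the step between low values. On simulated data with 200 changed genes, 155 were recovered and 9 false calls made among 14726 genes (hsa-miR-28-5p against siNT, MCF10A).

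In MCF10A the deviations of same-numbered libraries from their group means correlated between siNT and hsa-miR-28-5p (0.26, 0.18 and 0.11 for replicates 7, 8 and 9) and between siNT and hsa-miR-708-5p (0.30, 0.11 and 0.16), so the numbers paired these libraries. Between the mimics replicate 8 gave 0.025, and hsa-miR-28-5p replicate 8 was most like hsa-miR-708-5p replicate 9. In hTERT RPE-1 the correlations were 0.28, 0.20 and 0.13 between the mimics and 0.02 to 0.15 between siNT and the mimics. Each siNT library of this line was most like the library of its own number in both mimic groups. The labels call the replicates biological.

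The 9 markers, the gene lists and the tests were chosen with earlier results of these data known. From each list up to 4 genes were named per line, called in the same direction with both mimics, with a mean of at least 100 and the largest mean change. Alternatives varied the pseudocount, filter, scaling, spread model, block and libraries.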

Additional observations from a re-analysis of the deposited data

Results flagged for a closer look

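In the main fit the response to a mimic differed between the lines, by the test of the difference itself, for 5 pairs of marker and mimic. For hsa-miR-28-5p the difference in log2 fold change, hTERT RPE-1 minus MCF10A, was 1.22 in SNAI2 and -1.28 in ZEB1. For hsa-miR-708-5p it was 0.88 in SNAI2, -1.04 in ZEB1 and -1.80 in FN1. With no trend or a robust spread ZEB1 did not pass for hsa-miR-28-5p (Welch adjusted p = 0.0564 and 0.0523). For hsa-miR-708-5p ZEB1 did not pass with no trend, a robust spread or library size scaling (Welch adjusted p = 0.0766, 0.0739 and 0.0824). FN1 did not pass with a robust spread (Welch adjusted p = 0.0602). The counts were 2 and 3 of 7 markers, near the shares of all genes (23.4% and 39.8%). The lines were processed and scaled as separate tables, and the cause of these differences was not tested.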

How the results depend on the processing

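Over the alternatives that left out no single library, 581 of 620 marker fold changes kept their direction and their side of the threshold, 23 newly passed, 12 no longer passed and 4 reversed. Each pseudocount and each filter setting kept 62 of 62, which the high values of the markers left little room to change. A fold change that passed in neither fit also counts as kept, so the total is no measure of how stable the calls were. The reversed values were CDH2 with hsa-miR-28-5p in hTERT RPE-1 (0.0825 with library size and 0.0217 with upper-quartile scaling), and VIM with hsa-miR-708-5p (0.0285) and between the mimics (0.15) in that line with library size scaling. Beyond these 620, VIM between the mimics in MCF10A reversed without replicate 7 (-0.0639). Library size scaling called 4 markers and 4654 genes between the mimics in hTERT RPE-1, and the fit of the 6 libraries alone called 1. It moved the median of all genes by up to 0.32 and the share of higher calls from 47.1% to 66.2% and 47.3% to 67.6% in MCF10A for the first and the second mimic, in hTERT RPE-1 from 49.7% to 71.9% for hsa-miR-708-5p and from 46.5% to 84.8% between the mimics, and from 50.8% to 68.5% between lines for hsa-miR-708-5p. With no trend in the spread 1 marker was called with each mimic in MCF10A and for hsa-miR-28-5p between lines, and 150 genes between the mimics in MCF10A. A robust spread gave 1 with hsa-miR-28-5p in MCF10A and 1 between lines for each mimic. Both settings called FN1 lower in hTERT RPE-1 with hsa-miR-708-5p than with siNT or hsa-miR-28-5p.

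In MCF10A the replicate block called 6 markers with hsa-miR-28-5p, 7 with hsa-miR-708-5p and 2 between the mimics (643 genes), and 6 between lines for hsa-miR-708-5p. It changed no marker call within hTERT RPE-1. Without replicate 7, an alternative chosen after seeing the data, the counts were 7, 6, 2 (736 genes) and 6, and 3 between lines for hsa-miR-28-5p. The number of all genes called is given there only between the mimics. In that setting 8, 7 and 7 markers did not overlap in the 3 MCF10A comparisons, with 2 libraries a group. Groups of 2 separate more readily than groups of 3, and the share of all genes was not counted there. These counts are thus no result about the markers.

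Leaving out 1 library gave 1 to 4 markers and 1949 to 3950 genes called with hsa-miR-28-5p in MCF10A, 1 to 5 and 3174 to 5483 with hsa-miR-708-5p, and 0 to 1 and 112 to 368 between the mimics. In hTERT RPE-1 it gave 1 to 2 and 1512 to 4084 between the mimics, and between lines 1 to 2 for hsa-miR-28-5p and 1 to 4 for hsa-miR-708-5p. Markers that did not overlap ranged from 2 to 8, 3 to 7 and 1 to 6 in MCF10A and 3 to 5 with hsa-miR-28-5p in hTERT RPE-1. Groups separate more readily where a compared group has lost a library, and the share of all genes was not counted there. Fold changes that crossed 0, none of them called, were CDH1 (-0.35 to 0.11) and VIM (-0.0749 to 0.41) with hsa-miR-28-5p and CDH2 with hsa-miR-708-5p (-0.26 to 0.56) in MCF10A, and EPCAM (-0.68 to 0.21), CDH2 (-0.87 to 0.11), VIM (-0.17 to 0.32) and ZEB1 (-0.13 to 0.59) between the mimics there. In hTERT RPE-1 they were CDH2 with hsa-miR-28-5p (-0.0392 to 0.0568) and SNAI2 between the mimics (-0.0389 to 0.10). Between lines they were FN1 (-0.84 to 0.14), ZEB2 (-0.45 to 0.0893) and TWIST1 (-0.25 to 0.0422) for hsa-miR-28-5p and TWIST1 (-0.00838 to 0.21) for hsa-miR-708-5p. The cause was not tested. All 9 markers lay above the counting floor.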
